A study of Mus musculus with 18 samples.

Results

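The enzymes of the tricarboxylic acid (TCA) cycle were examined through 9 of their genes: Cs, Idh2, Idh3a, Ogdh, Dlst, Suclg1, Sucla2, Fh1 and Mdh2. They were picked by symbol from the 21938 protein-coding genes of GENCODE release M21 on GRCm38, and all 9 were found. Splenic B cells had been purified by negative selection for CD43, Ter119 and CD4 from Mir155-sufficient (WT) or Mir155-deficient (KO) mice on a C57BL/6J background. No Cre that would restrict the deletion to B cells is described for these mice. Both genotypes were activated in culture with anti-CD40, an F(ab')2 fragment of anti-IgM and IL-4 for 2 days at 1% O2, so the WT libraries also come from stimulated, hypoxic cells. After fixation with EGS and formaldehyde, chromatin was precipitated for KDM2A, a histone demethylase, or for H3K36me2, which is histone H3 dimethylated at lysine 36. Each genotype had 3 libraries per antibody, and replicate 1 was male and replicates 2 and 3 were female in all 4 groups. The 12 peak lists of these libraries were used. Another 6 samples of the 18 were input libraries, which were not used here.

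The TCA cycle runs in the mitochondrial matrix, oxidises acetyl-CoA to carbon dioxide, and passes the electrons to the respiratory chain as NADH and FADH2. Its enzymes are encoded in the nucleus, and B cells raise mitochondrial oxidation when they are activated. KDM2A binds unmethylated CpG dinucleotides through a zinc finger and removes H3K36me2, so CpG-rich promoters are its usual sites.

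The 5′ ends of the 9 genes were mostly of this kind. Within 500 bp of the GENCODE 5′ end, 8 of 9 genes reached 50% GC with more than 0.6 of the CG dinucleotides that base composition predicts, against 44.4% of all protein-coding genes. The exception was Sucla2, whose 5′-most annotated start lies 27313 bp upstream of the next start. RefSeq promoters, 250 bases before to 50 after a start on GRCm38.p6, were matched for 8 of the 9 genes, which leaves Idh3a. Each CG dinucleotide is in capitals in the sequences below, which show 3 genes with a KDM2A peak in every list, 1 gene with no KDM2A peak in any KO list, and the downstream start of Sucla2. CG was searched as these 2 letters, which read the same on both strands. The median promoter of the 32851 in the table held 7, and 94.6% held at least 1.
Cs, chr10:128337477-128337776, plus strand, 18 CG: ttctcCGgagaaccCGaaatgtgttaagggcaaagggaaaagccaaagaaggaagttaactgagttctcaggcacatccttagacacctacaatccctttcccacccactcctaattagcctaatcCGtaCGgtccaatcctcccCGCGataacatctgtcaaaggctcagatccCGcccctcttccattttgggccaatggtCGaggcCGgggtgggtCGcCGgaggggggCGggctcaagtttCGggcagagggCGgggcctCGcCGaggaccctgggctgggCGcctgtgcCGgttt
Ogdh, chr11:6291409-6291708, plus strand, 26 CG: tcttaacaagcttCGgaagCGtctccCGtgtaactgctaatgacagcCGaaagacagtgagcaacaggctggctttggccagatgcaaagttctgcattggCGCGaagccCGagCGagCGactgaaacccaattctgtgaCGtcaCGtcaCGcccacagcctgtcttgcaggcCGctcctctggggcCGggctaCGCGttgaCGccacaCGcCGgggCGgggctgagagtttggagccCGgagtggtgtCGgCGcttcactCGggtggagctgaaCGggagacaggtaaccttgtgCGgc
Dlst, chr12:85110583-85110882, plus strand, 28 CG: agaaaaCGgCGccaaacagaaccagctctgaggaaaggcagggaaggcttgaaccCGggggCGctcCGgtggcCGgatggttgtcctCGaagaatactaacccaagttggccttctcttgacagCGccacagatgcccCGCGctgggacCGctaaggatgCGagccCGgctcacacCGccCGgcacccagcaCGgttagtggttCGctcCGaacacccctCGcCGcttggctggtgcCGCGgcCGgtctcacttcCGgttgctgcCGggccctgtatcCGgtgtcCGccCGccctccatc
Suclg1, chr6:73248255-73248554, plus strand, 17 CG: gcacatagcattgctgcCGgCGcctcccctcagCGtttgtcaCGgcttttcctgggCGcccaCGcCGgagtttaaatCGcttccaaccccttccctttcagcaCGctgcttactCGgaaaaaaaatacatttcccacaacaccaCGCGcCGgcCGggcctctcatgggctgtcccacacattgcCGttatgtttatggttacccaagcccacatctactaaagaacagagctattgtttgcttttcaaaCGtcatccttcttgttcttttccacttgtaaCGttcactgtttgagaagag
Sucla2, chr14:73552536-73552835, plus strand, 24 CG: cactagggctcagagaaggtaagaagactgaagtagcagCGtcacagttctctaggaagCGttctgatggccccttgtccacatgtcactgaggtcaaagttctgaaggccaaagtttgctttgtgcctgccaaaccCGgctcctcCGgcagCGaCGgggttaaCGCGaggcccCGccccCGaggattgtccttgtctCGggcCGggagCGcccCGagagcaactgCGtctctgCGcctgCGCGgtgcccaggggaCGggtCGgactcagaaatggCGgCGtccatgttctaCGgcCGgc
Promoters with at least as many CG dinucleotides made up 29.7% of the table for Cs, 16.9% for Ogdh, 14.2% for Dlst, 31.4% for Suclg1 and 20% for Sucla2. Idh2 held 20, Mdh2 27 and Fh1 14.

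A value here is either the fold of a peak, which is the authors' ratio over the local background of that library, or coverage, the percent of bases of a region that lies under peaks. The promoter of a gene is the merged set of windows from 2 kb before to 2 kb after each annotated TSS, and the gene body runs from its first to its last base. The merged windows spanned from 4077 bp for Cs to 20139 bp for Sucla2, so a peak of a given width gives a lower percent where starts lie far apart. The lists differed in length. KDM2A peaks covered 0.770% to 1.11% of the genome in WT and 0.433% to 0.715% in KO, and H3K36me2 peaks covered 4.17% to 5.32% in WT and 1.44% to 3.63% in KO. The highest KO value for H3K36me2 belonged to the male KO library, and the female KO lists covered 1.59% and 1.44%. Read depth is unknown, so shorter lists and less binding cannot be told apart. Coverage gives no interval for counting error, and the p-values measure only the spread between these libraries, which the labels do not tie to separate animals. Of 7 B cell markers 7 had a promoter KDM2A peak in some list and 5 in all 6, against 2 of 4 T cell, 1 of 3 myeloid and 0 of 2 erythroid markers in some list and none of these in all 6. Cd3d had such a peak in 4 of the 6 lists (21.99%, 0% and 12.2% of its promoter in WT and 6.87%, 0% and 8.34% in KO), Cd8a in WT replicate 3 (21.6%) and Csf1r in the male KO library (2.96%). The other T cell and myeloid markers, Cd3e, Cd4, Lyz2 and Itgam, were at 0 in every KDM2A list. The KDM2A promoter coverage of the 7 B cell markers summed to between 274.8 and 347.8 in WT and between 139.0 and 255.8 in KO, so it moved with genotype, without overlap. The sums were 0 to 33.8 and 0 to 8.34 for the T cell markers, 0 and 0 to 2.96 for the myeloid markers and 0 in all lists for the erythroid markers. The H3K36me2 coverage of the bodies of these 7 B cell genes summed to between 48.2 and 56.7 in WT and between 2.32 and 44.2 in KO, so it moved with genotype as the TCA cycle genes did. For the 3 myeloid markers the sums were 86.2 to 100.5 and 28.5 to 68.9, and for the 4 T cell markers 55.5 to 76.2 and 0 to 68.2. The part of other cell types in the results was not tested. The deletion could not be checked from peaks, since among all 12 lists only the third WT KDM2A list had a peak over the Mir155 hairpin.

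The first question was where KDM2A sits on these genes and whether its peaks were kept in KO cells. All 9 genes had a promoter KDM2A peak in at least 2 of the 3 WT lists, and 7 of them also in at least 2 KO lists. A peak was present in all 6 lists for Cs, Idh2, Ogdh and Dlst. That is 44.4% of the 9 genes, against 26.4% of all protein-coding genes and 46.2% of those with a CpG-rich 5′ end. Idh3a and Suclg1 met the rule of 2 lists in WT only, which 8.32% of all genes did and 9.82% of CpG-rich ones. No TCA cycle gene met it in KO only.

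Cs lies at chr10:128337734-128362479 on the plus strand and encodes citrate synthase, which joins acetyl-CoA to oxaloacetate. WT replicates 1 to 3 had a strongest promoter peak of 2.91, 3.65 and 3.40 fold, and KO replicates 1 to 3 one of 3.18, 2.93 and 3.10 fold, and values are given in this order below. The male WT library was the lowest of the 6, and the genotypes overlapped. Ogdh (chr11:6291633-6356642, plus strand) encodes the E1 subunit of the 2-oxoglutarate dehydrogenase complex, the step from 2-oxoglutarate to succinyl-CoA. Its fold was 3.21, 3.28 and 3.11 in WT against 3.48, 3.08 and 2.86 in KO. The highest and the lowest value both came from KO. Dlst (chr12:85110833-85134845, plus strand) encodes the E2 subunit of the same complex, which carries the lipoyl group. Its fold was 2.93, 3.17 and 3.70 in WT against 2.93, 2.88 and 3.19 in KO, with overlap. Idh2 (chr7:80094846-80115392, minus strand) encodes the NADP-dependent isocitrate dehydrogenase of mitochondria. Its fold was 2.48, 3.53 and 2.67 in WT against 3.01, 2.76 and 2.83 in KO, and the KO values lay between the lowest and the highest WT values. On the log2 scale, with each library centred on its own median, KO minus WT was -0.04 for Cs (SE 0.11), 0.03 for Ogdh (SE 0.11), -0.06 for Dlst (SE 0.11) and 0.07 for Idh2 (SE 0.11). None passed limma's test, with adjusted p between 0.972 and 0.996 over 5786 genes. Over all of these, limma called 0% at an adjusted p under 0.05, and 299 genes had an unadjusted p under 0.05. In none of the 4 genes did the genotypes lie apart, against 5.17% of all genes tested with every KO value lower and 5.2% with every KO value higher. The median difference was -0.01 for the 4 genes and 0.00221 for all genes tested.

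The other 5 genes lacked a peak in at least 1 list and were not tested for fold over all 6 libraries. Idh3a (chr9:54586334-54604661, plus strand) encodes the catalytic alpha subunit of the NAD-dependent isocitrate dehydrogenase. Its fold was 2.33, 3.11 and 3.08 in WT, and among KO lists only replicate 3 held a peak, of 2.64. Suclg1 (chr6:73248382-73276911, plus strand) encodes the alpha subunit that both succinyl-CoA synthetases share. It had peaks of 2.50 and 3.82 in WT replicates 1 and 2 and none in WT replicate 3 or in any KO list. So its absence was common to 1 WT and all KO lists. Sucla2 (chr14:73525319-73596142, plus strand) encodes the beta subunit of the ADP-forming synthetase. Its strongest peak was 2.88 and 2.70 in WT replicates 1 and 3, with none in WT replicate 2, and 2.81, 3.68 and 2.66 in KO. Fh1 (chr1:175600374-175625635, minus strand) encodes fumarase, which hydrates fumarate to malate. Its peaks were 3.12 and 3.07 in WT replicates 1 and 3, absent in WT replicate 2, and 2.59, 2.58 and 2.66 in KO. The body of Fh1 overlaps Kmo on the other strand. Mdh2 (chr5:135778480-135790398, plus strand) encodes mitochondrial malate dehydrogenase, which regenerates oxaloacetate. Its peaks were 2.59, 2.85 and 2.71 in WT, absent in the male KO library, and 2.94 and 3.37 in the female KO libraries. Where a peak was called, every Fh1 fold was lower in KO and every Mdh2 fold higher. How many of all genes with a peak missing from a list separate like this was not counted, so nothing is drawn from it. Fits that left out the libraries without a peak gave Mdh2 a log2 difference of 0.28 (SE 0.11) without the male KO library and 0.27 (SE 0.13) in the female libraries alone, with unadjusted p of 0.0209 and 0.0502 and adjusted p of 0.967 and 0.953 by limma. Without WT replicate 2 the difference was -0.22 (SE 0.10) for Fh1 and 0.14 (SE 0.14) for Sucla2, with unadjusted p of 0.0447 and 0.313 and adjusted p of 0.863 and 0.927 by limma. So none of the 3 genes passed the adjusted threshold there. Idh3a and Suclg1 lacked peaks in too many lists for any of these fits.

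**Figure D1:**
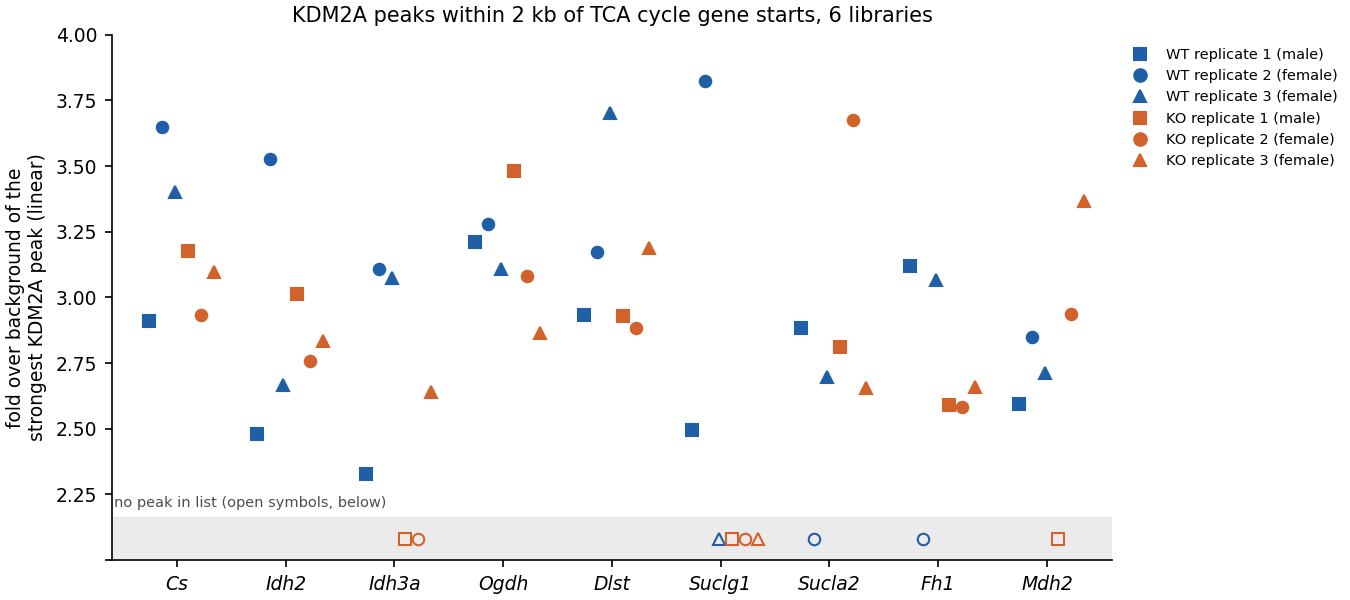
Fold over background (linear axis, not starting at 0) of the strongest KDM2A peak within 2 kb of any TSS of each gene, with 1 symbol per library; open symbols in the grey band mark lists with no peak. Cs, Idh2, Ogdh and Dlst have 6 filled symbols each, and Suclg1 has 2, both WT.

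Promoter coverage by KDM2A uses all 6 lists for every gene. Its mean was lower in KO for 8 of the 9 genes, and for 8670 of the 11567 genes tested. Of those 8, 5 (Fh1, Idh2, Cs, Ogdh and Dlst) turned higher in KO once coverage was scaled to the genome share of each list. Idh3a was covered at 3.92%, 11.8% and 5.70% in WT and 0%, 0% and 3.18% in KO. Every KO value was below every WT value (KO minus WT -6.08 percentage points, SE 2.50, adjusted p = 0.549 by limma). Without WT replicate 2, the highest of the 6, the difference was -3.75 points. Such a gap without overlap in this direction was found in 13.3% of the 11567 genes tested and in 1 of the 9, and in the other direction in 1.26% and again 1 of the 9. That gene was Sucla2, at 2.17%, 0% and 3.46% in WT and 4.43%, 4.92% and 6.12% in KO (difference 3.28, SE 1.72, adjusted p = 0.562), and at its 5′-most start alone the difference was -0.24. Suclg1 was covered at 12.8%, 4.98% and 0% in WT and at 0% in each KO library. Mdh2 had 50.9%, 18.7% and 26.0% in WT and 0%, 16.2% and 36.8% in KO, the widest spread of the 9. The male library was the highest of the WT group and the lowest of the KO group there. Ogdh had 32.4%, 29.8% and 21.4% against 21.5%, 18.1% and 21.9%. Cs had 45.7%, 26.7% and 22.7% against 29.7%, 21.2% and 34.7%. Idh2 (6.93%, 18.6% and 9.12% against 17.0%, 7.90% and 5.84%), Dlst (4.47%, 9.14% and 5.10% against 2.21%, 5.76% and 3.58%) and Fh1 (6.66%, 0% and 6.23% against 4.24%, 5.55% and 1.98%) overlapped between genotypes as well. None of the 9 passed the test, and limma called 0% of all genes, with 1038 at an unadjusted p under 0.05. The 9 genes averaged 14.3% ± 3.77 over the WT libraries and 10.1% ± 2.23 over the KO libraries (SD, n = 3), a ratio of 0.708. The ratio over all protein-coding genes was 0.706. The median difference was -3.16 points for the 9 and -2.79 for all genes tested. Scaled to the genome share of each list, the median of the 9 turned higher in KO.

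The peaks sat on the 5′ ends. Of 69 KDM2A peaks on these genes 53 lay near a TSS, and 40 of the 54 pairs of gene and library had a peak that covered the 5′-most base. Their widths ranged from 220 to 2160 bp for all 69 peaks, with a median of 790 bp. Along the genes, mean coverage was highest in the first 250 bp of the transcribed side, where it reached 78.1% in WT and 60.6% in KO against 33.4% and 28.0% over all genes. Further downstream it was lower. Coverage of the 2 kb downstream of the 5′ end ordered the WT genes as Cs (51.8% ± 26.8), Mdh2 (51.4% ± 33.6), Ogdh (51.0% ± 7.32), Idh2 (42.8% ± 23.1), Dlst (30.4% ± 13.5), Idh3a (23.7% ± 20.5), Suclg1 (21.9% ± 26.6), Fh1 (16.9% ± 15.3) and Sucla2, which was at 0% in all 3 (SD, n = 3). Only the last step in that order exceeded the larger SD of the 2 neighbours. In KO the order began with Cs (49.3% ± 10.1) and Idh2 (45.3% ± 20.2) and ended with Idh3a (2.82% ± 4.88), Sucla2 (1.27% ± 1.86) and Suclg1 (0%), and no step exceeded the larger SD. In this 2 kb Ogdh had 44.9%, 59.1% and 49.1% in WT and 37.1%, 31.6% and 28% in KO, and Mdh2 had 90.2%, 31.9% and 32.0% against 0%, 23.5% and 16.4%. In these 2 of 9 genes every KO value was below every WT value, as in 9.48% of the 10351 genes covered there in at least 2 libraries. Over the downstream 2 kb the 9 genes averaged 32.2% ± 7.15 in WT and 20.5% ± 2.55 in KO, and CpG-rich genes 25.2% ± 2.12 and 19.98% ± 3.19 (SD, n = 3 libraries). Over the 2 kb upstream the 9 genes averaged 14.4% ± 0.276 in WT and 10.6% ± 5.96 in KO, and there every KO value was below every WT value in 0 of the 9 genes, against 9.88% of 9404.

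Sucla2 was the gene whose KDM2A signal did not follow its 5′-most start. Peaks within 2 kb of that start were called in WT replicates 1 and 3 and KO replicates 1 and 3. A second site at the downstream starts, whose sequence is printed above, held a peak in WT replicate 3 and in all 3 KO lists, beginning between 27357 and 27573 bp from the 5′ end. Sucla2 was also the 1 gene of the 9 whose gene-body coverage did not overlap between genotypes, at 0%, 0% and 0.311% in WT and 0.733%, 1.40% and 1.13% in KO (difference 0.98, SE 0.26, unadjusted p = 0.00668, adjusted p = 0.465 by limma). A higher KO without overlap was seen in 1.18% of the 12591 genes tested for KDM2A in gene bodies and a lower KO in 15%. Peaks of Dlst and Mdh2 share their ground with a gene on the other strand, since Prox2 starts 74 bp from Dlst and Styxl1 95 bp from Mdh2.

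KDM2A coverage of the Cs body was 13.7%, 3.51% and 7.44% in WT against 3.67%, 4.82% and 4.91% in KO, and that of Mdh2 15.1%, 5.36% and 8.13% against 0%, 9.76% and 2.74%. Idh2 had 4.37%, 7.83% and 5.24% against 10.1%, 4.97% and 2.22%, where the male KO library was the highest of the 6. Suclg1 had 3.61%, 1.00% and 0% in WT and no peak in KO. Idh3a had 0.436%, 4.91% and 2.41% against 0%, 0% and 0.922%. Ogdh, Dlst and Fh1 stayed between 0% and 5.28% in every library and overlapped between genotypes. None of the 9 passed limma's test, which called 0% of all genes, with 1100 at an unadjusted p under 0.05. The median difference was -1.29 points for the 9 and -0.80 for all genes tested, and scaled to the genome share of each list that of the 9 was 0.053.

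The second question concerned the mark that KDM2A removes. H3K36me2 peaks flanked the 5′ ends and rarely covered them. Of 73 H3K36me2 peaks on the 9 genes 48 lay near a TSS, of which 26 were upstream of the 5′-most base, 20 downstream of it and 2 across it. Both of the latter were at Idh2, in WT replicates 1 and 2. Mean coverage dipped to 7.41% in WT and 0% in KO in the 250 bp after the 5′ end. It stood at 47.5% and 23.9% between 1500 and 1250 bp upstream, and at 29.9% and 4.06% between 1250 and 1500 bp downstream. All protein-coding genes dipped as well, to 6.70% in WT and 2.27% in KO in the 250 bp after the 5′ end. Their means were 14.7% and 6.27% in that upstream bin and 9.44% and 3.39% in that downstream bin. KDM2A and H3K36me2 peaks both occurred in 33 pairs of gene and library, and they shared at least 1 base in 13 of these and none in the other 20. Shared bases were not counted over all genes.

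**Figure D2:**
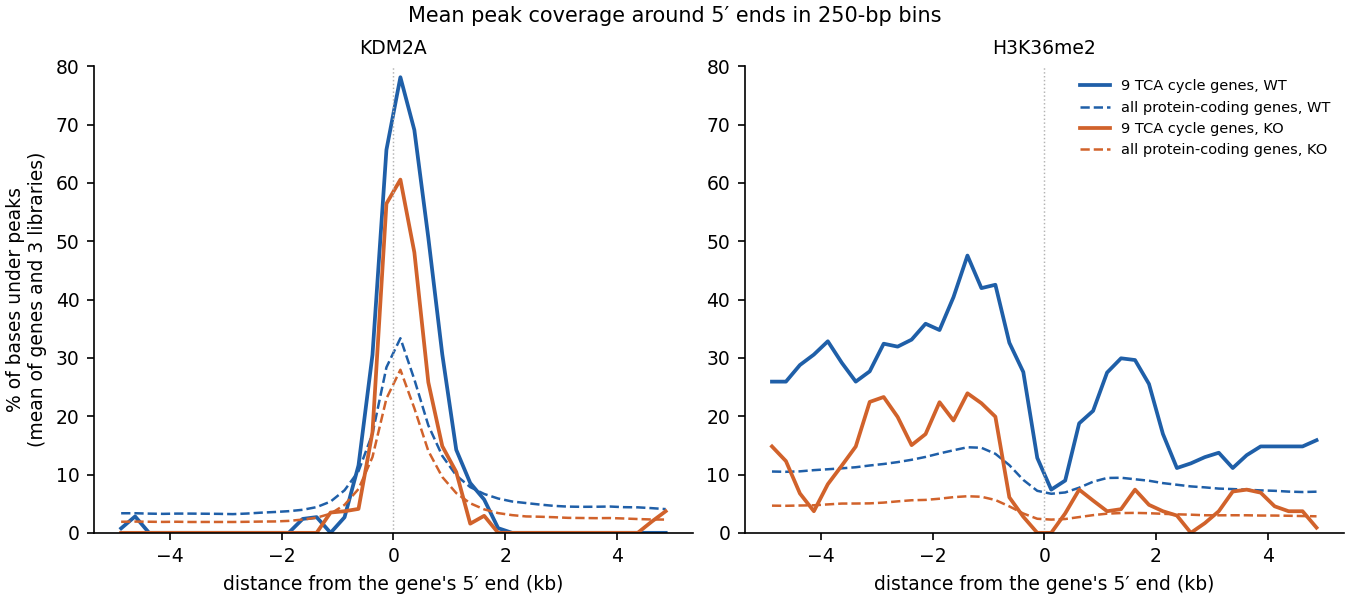
Mean percent of bases under peaks (y axis) in bins of 250 bp by distance from the 5′ end in kb (x axis, transcription to the right), for the 9 TCA cycle genes (solid) and all protein-coding genes (dashed), WT blue and KO orange, each the mean of 3 libraries. KDM2A peaks at the start, reaching 78.1% in WT, where H3K36me2 is at 7.41%.

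**Figure D3:**
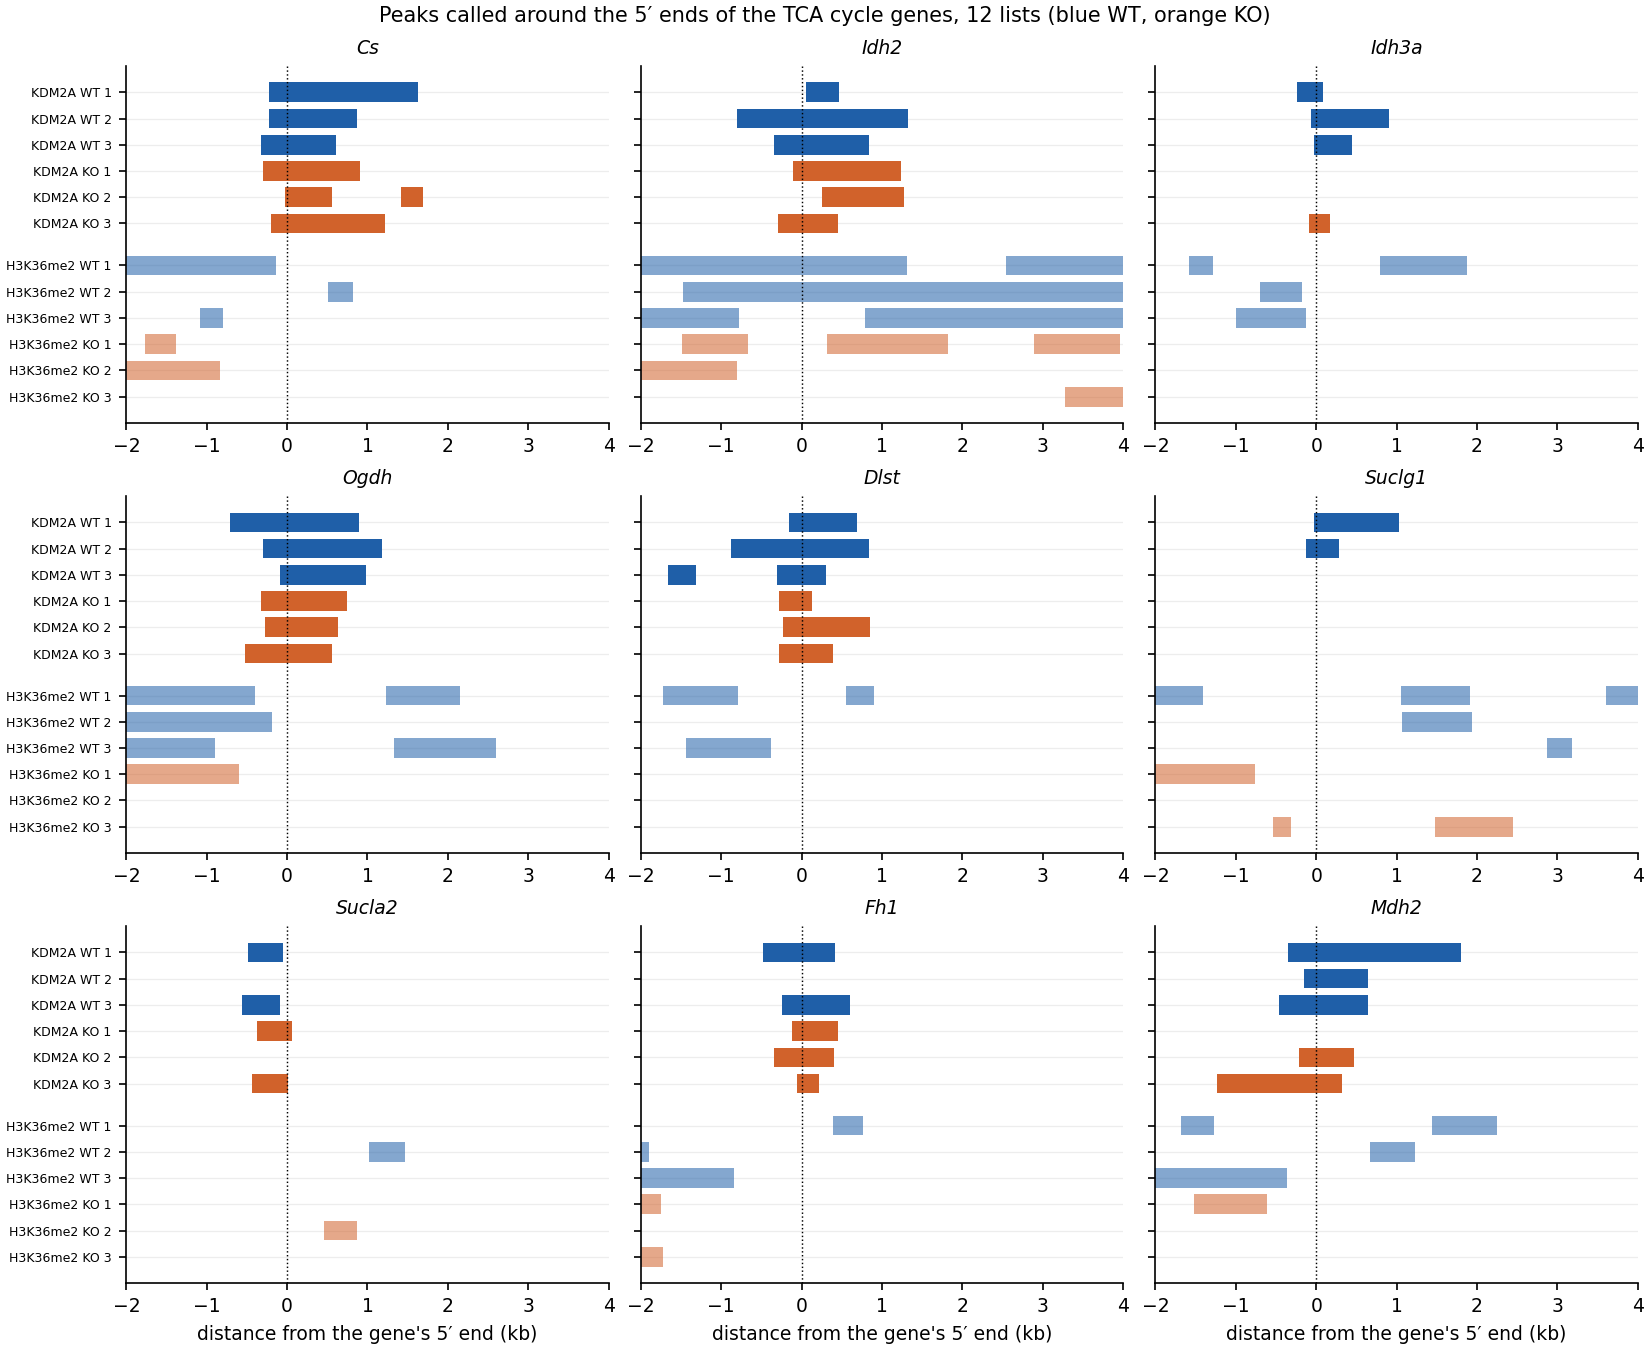
Peaks in the 12 lists (rows; KDM2A in full colour, H3K36me2 pale, WT blue, KO orange) from 2 kb before to 4 kb after the 5′ end of each gene (x axis, kb, transcription to the right). KDM2A bars cross the dotted 5′ end in all 6 lists at Cs, Ogdh and Dlst, and H3K36me2 bars cross it only at Idh2 in WT replicates 1 and 2.

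At the promoters H3K36me2 coverage had a lower mean in KO for all 9 genes, as it had for 9170 of the 10360 genes tested. Cs and Suclg1 were higher in KO after scaling to the genome share of each list. Ogdh had the largest difference, with 50.8%, 36.4% and 47.6% in WT and 28.1%, 0% and 0% in KO (-35.5 points, SE 12.4, adjusted p = 0.276 by limma). The KO value above 0 was that of the male library. Idh3a had 16.7%, 6.33% and 10.6% in WT and no peak in KO (-11.2 points, SE 4.79, adjusted p = 0.296). In these 2 of 9 genes every KO value was below every WT value, as in 23.6% of the 10360 genes tested, and in none was it higher throughout, as in 0.29%. Mdh2 had 28.6%, 13.2% and 38.6% against 21.5%, 0% and 0%, with overlap through the male KO library. Idh2 had 26.2%, 27.6% and 19.5% against 23.0%, 9.20% and 0%, again with the male library the highest of KO. Cs had 45.7%, 7.82% and 6.97% against 9.42%, 28.6% and 0%, and its high WT value was that of the male library. Suclg1 had 17.6%, 10.5% and 0% against 14.9%, 0% and 12.4%, the smallest difference of the 9 (-0.25 points, SE 7.54). Dlst (6.84%, 0% and 5.64% against 0% throughout), Sucla2 (7.38%, 5.41% and 0% against 1.36%, 2.07% and 0%) and Fh1 (2.73%, 0.719% and 8.55% against 1.90%, 0% and 2.00%) stayed at or below 8.55% of their merged windows. Those windows span 18710, 20139 and 13492 bp, against 4973 bp for Ogdh, so these percentages are not on one scale across genes. In the 2 kb upstream of the 5′ end alone, Dlst had 46.35%, 0% and 52.75% in WT and no peak in KO. Fh1 had 0%, 4.85% and 57.65% there in WT and 12.85%, 0% and 13.5% in KO. No gene of the 9 passed the test, and limma called 0% of all genes, with 1667 at an unadjusted p under 0.05. The 9 genes averaged 16.6% ± 5.38 over the WT libraries and 5.73% ± 4.90 over the KO libraries (SD, n = 3), a ratio of 0.345. Over all protein-coding genes the ratio was 0.388. Among the KO libraries the mean over the 9 genes was 11.1% in the male, 4.44% in replicate 2 and 1.60% in replicate 3. The median difference was -7.48 points for the 9 and -7.15 for all genes tested.

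Over the 2 kb upstream of the 5′ end the 9 genes averaged 35.0% ± 11.6 in WT and 14.6% ± 12.6 in KO (SD, n = 3 libraries). CpG-rich genes averaged 14.9% and 5.82% and all protein-coding genes 12.3% and 5.04%. This difference between the 9 genes and the others was not tested. Idh2 had 100%, 74% and 60.9% in WT and 41.6%, 59.6% and 0% in KO over this stretch, and Ogdh 80.3%, 90.4% and 55% against 70.0%, 0% and 0%. Idh3a had 14.6%, 25.9% and 43.5% in WT and no peak in KO. Every KO value was below every WT value in Idh2 and Idh3a, 2 of the 8 genes covered here in at least 2 libraries, as in 17.7% of the 7095 such genes, whereas Ogdh overlapped through the male KO library. Downstream of the 5′ end the 9 genes averaged 21.1% ± 9.70 in WT and 4.53% ± 3.33 in KO, lower than upstream in 4 of the 6 libraries but not in WT replicate 2 (21.7% upstream, 23.3% downstream) or KO replicate 3 (2.72% and 2.91%), and this difference was not tested. Idh2 was the highest at 65.8%, 100% and 60.8% in WT against 75.2%, 0% and 0%. Every KO value was below every WT value in 0 of the 5 genes covered downstream in at least 2 libraries, against 15.0% of the 5338 such genes. Sucla2 had no H3K36me2 peak in the upstream stretch in any library.

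Within the gene bodies Idh2 stood apart from the other 8 genes. H3K36me2 peaks covered 40.9%, 50.5% and 50.1% of it in WT and 28.7%, 9.34% and 8.73% in KO. Every KO library was below every WT library, and the female KO libraries were lower than the male one. The difference was -31.6 points (SE 9.26), with an unadjusted p of 0.00911 and an adjusted p of 0.239 by limma, so it did not pass the threshold. A lower KO without overlap was found in 28.1% of the 10350 genes tested and in 1 of the 7 TCA cycle genes tested, and a higher one in 0.106% and in none of the 7. In the female libraries alone the difference was -41.3 points and passed the test (adjusted p = 0.0347), as did 35.8% of the 8380 genes tested in them and 1 of the 4 TCA cycle genes among these. In WT the level of Idh2 was 47.2% ± 5.45, followed by Suclg1 at 8.34% ± 7.04 (SD, n = 3), and this step in the order exceeded the larger SD. Those below it did not. In KO Idh2 was again first, at 15.6% ± 11.4, before Suclg1 at 4.11% ± 0.993.

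Suclg1 had 16.2%, 6.23% and 2.59% in WT and 5.24%, 3.66% and 3.41% in KO, so that its KO values lay within the WT range. Cs had 2.92%, 4.61% and 9.01% against 7.13%, 0% and 0%. Mdh2 had 6.82%, 4.70% and 0% in WT and no peak in KO, and Ogdh 1.41%, 0% and 1.95% in WT and none in KO. Sucla2 had 3.48%, 3.43% and 0% against 0.387%, 0.589% and 0%. Dlst had 1.47%, 0% and 0% against 2.69%, 0% and 0%, the 1 gene with a higher mean in KO. Idh3a at 5.85% and Fh1 at 1.46% were covered in the male WT library only and were not tested. The mean over the 9 genes in KO was 0.327 of that in WT, with Suclg1 the gene that was higher in KO when scaled to the genome share of each list besides Dlst, and over all protein-coding genes 0.394. The median difference was -3.14 points for the 7 genes and -4.46 for all genes tested. Limma called 0% of all genes, with 2157 at an unadjusted p under 0.05.

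**Figure D4:**
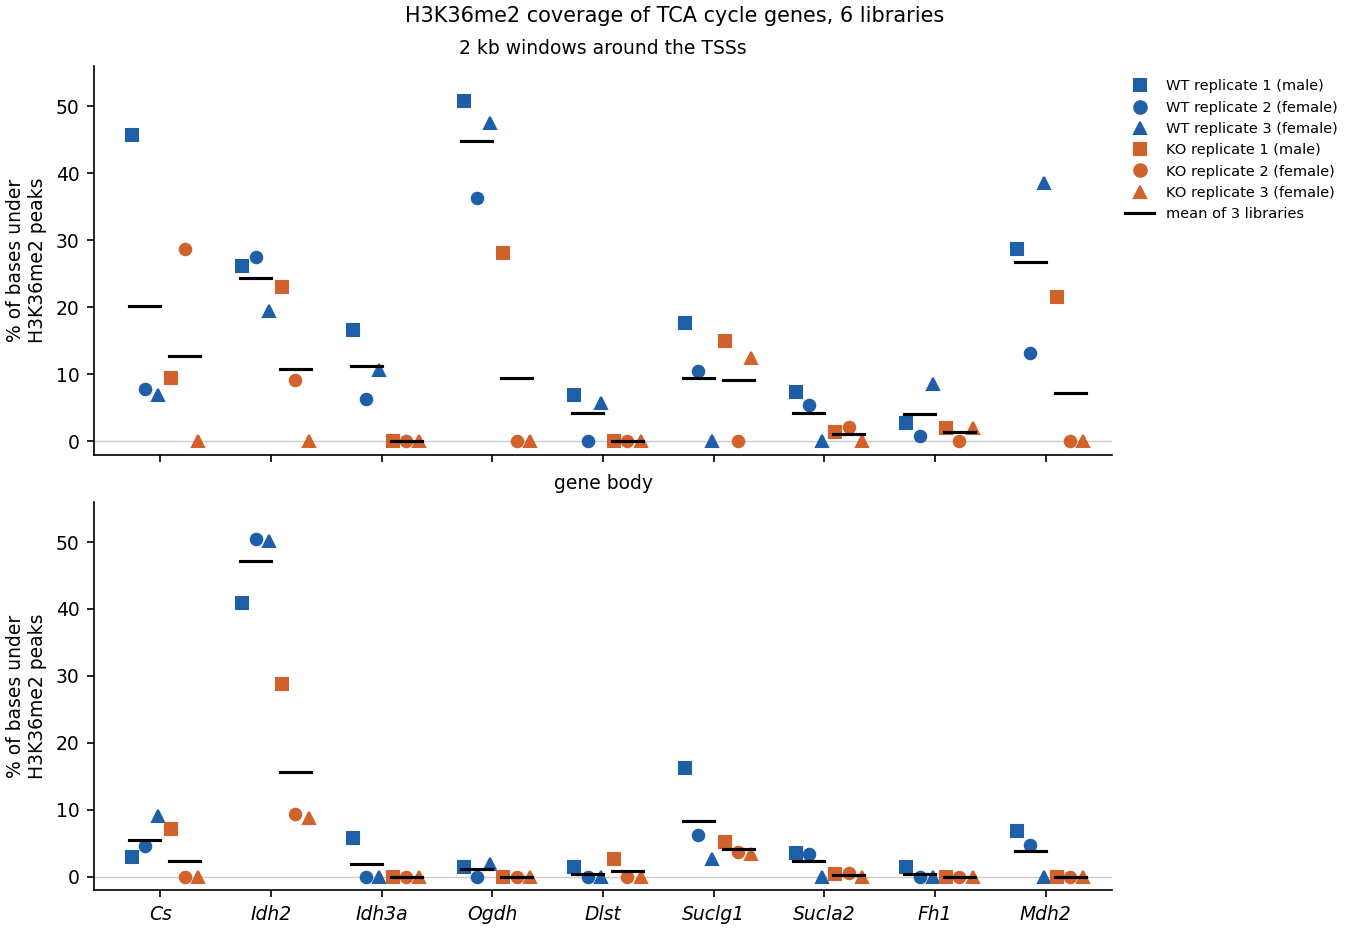
Percent of bases under H3K36me2 peaks (y axis) in the promoter windows (top) and the gene body (bottom) of the 9 genes, 1 symbol per library with the mean of each genotype as a line. Ogdh and Idh3a do not overlap between genotypes in the upper panel and Idh2 does not in the lower one, and the male KO library (orange square) is often the highest of its group.

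The strength of the H3K36me2 peaks could be compared in 2 genes with a peak in all 6 lists. The fold of the strongest peak in the body of Idh2 was 2.77, 2.65 and 2.86 in WT against 3.00, 2.61 and 2.70 in KO. That of Suclg1 was 2.80, 2.59 and 2.65 against 2.67, 2.55 and 2.60. Both overlapped between genotypes, where 6.13% of the genes tested were lower in KO throughout and 5.73% higher, with log2 differences of -0.02 (SE 0.06) and -0.06 (SE 0.06) and adjusted p of 0.990 and 0.945 by limma. It called 0% of the 3261 genes tested, with 183 at an unadjusted p under 0.05.

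**Figure D5:**
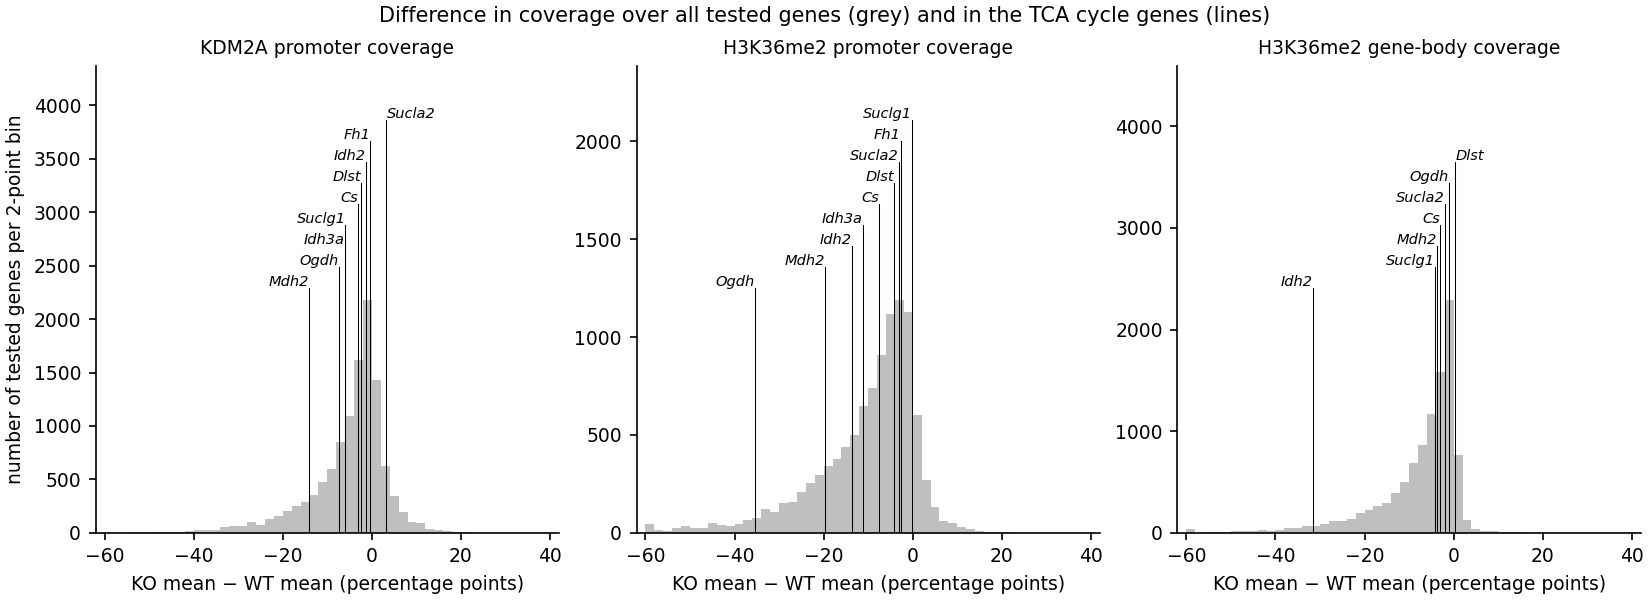
Number of tested genes (y axis, grey bars of 2 points; values beyond -60 or 40 are in the end bars) by the difference in coverage between the KO and WT means in percentage points (x axis), with black lines at the TCA cycle genes. Ogdh at -35.5 and Idh2 at -31.6 lie in the lower tail of the H3K36me2 panels, and most other genes lie near the bulk.

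The wider pathway was read from 41 other genes for pyruvate entry, regulation of pyruvate dehydrogenase, the remaining subunits of the cycle, cytosolic forms, anaplerosis, carriers and lipoylation. A KDM2A promoter peak was present in all 6 lists for 21 of them (51.2%), and limma called 0 of the 41 in any of the 6 comparisons. With the female libraries alone it called 5 of the 18 tested for H3K36me2 gene-body coverage, where 35.8% of all genes were called, and all 5 were lower in KO: Sdhd, Dhtkd1, Pcx, Suclg2 and Me3 (adjusted p between 0.0347 and 0.0438). Dhtkd1, Pcx and Me3 are named after their values were seen. In KDM2A promoter coverage 2 of 33 tested genes were lower in KO without overlap and 1 was higher, against 13.3% and 1.26% of all genes tested. The lower ones were Sdhc, a membrane anchor of succinate dehydrogenase (15.9%, 15.5% and 25.8% against 7.94%, 6.67% and 10.2%), and Acly, the cytosolic ATP citrate lyase (13.1%, 12.3% and 12.5% against 6.98%, 3.12% and 9.30%). The higher one was Mpc2, a subunit of the mitochondrial pyruvate carrier (12.6%, 14.7% and 9.26% against 23.0%, 21.2% and 28.4%). Their adjusted p lay between 0.549 and 0.575. In KDM2A gene-body coverage 3 of 35 tested genes were lower in KO without overlap and none was higher, against 15% and 1.18% of all genes tested. Among these were Sdhc and Sdha, the flavoprotein subunit of succinate dehydrogenase, with differences of -2.29 and -0.55 points. For H3K36me2, 10 of 29 promoters and 5 of 23 gene bodies were lower in KO without overlap and none was higher, against 23.6% and 28.1% lower over all genes tested. Pdhx, which anchors E3 in the pyruvate dehydrogenase complex, had the largest promoter difference (68.9%, 29.2% and 15.9% against 0%, 8.35% and 0%). Sdhd, the other membrane anchor of succinate dehydrogenase, had H3K36me2 over 8.22%, 15.0% and 13.8% of its body in WT and no peak in KO. By mean difference, Sdhd led the gene bodies without overlap, and Suclg2, the beta subunit of the GDP-forming succinyl-CoA synthetase, had 4.64%, 6.91% and 7.13% against 3.80%, 0.673% and 1.43%.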

How the data were processed

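ChIP-seq reads had been aligned to GRCm38 with BWA and broad peaks called by MACS2 through nf-core/chipseq, as the study's methods and the submitters' processing notes state. The authors deposited a separate list for every library. The fold of a peak is the authors' ratio over local background. The deposited lists also give −log10 of a p-value and of a q-value, and −log10 q served for a stricter list of at least 2. Versions of the peak caller and read counts were not given in the sources used here, so depth and precision per library are unknown.

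Gene models were those of GENCODE M21. Peaks counted from 1 shared base. The members and gene lists were chosen with earlier results of these data known. KO was compared with WT by limma 3.58.1 in R 4.3.3 (lmFit, eBayes with trend) over all genes covered in at least 2 of 6 libraries (for fold, all 6), two-sided, with p-values adjusted by Benjamini-Hochberg and called under 0.05. The same fit was checked on simulated data. Log2 folds were centred per library. All 9 members are named in every comparison, and other pathway genes only where genotypes did not overlap, up to 4 per comparison. Some genes that this rule allows are not reported here. Other steps used numpy 2.4.6 and pandas 2.3.3 under Python 3.11.15. Alternatives were a replicate block, female libraries only, peak centres, equal numbers of peaks, a 1 kb window, the 5′ end alone, the body outside the TSS windows, scaling to genome share, stricter peaks, no filter, no centring, percentile ranks and leaving out each library. The 2 kb flanks, and their shares over all genes, were added after the values were seen.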

Additional observations from a re-analysis of the deposited data

Results flagged for a closer look

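In 5 of the 40 values of TCA cycle genes tested, the male pair moved one way and every female KO library moved the opposite way from every female WT library. With 1 male library per genotype and antibody, whether the sexes differed was not tested. The same pattern held for 18.8% of all genes tested for KDM2A promoter fold, 10.7% for KDM2A promoter coverage, 9.98% for KDM2A gene-body coverage and 26.7% for H3K36me2 gene-body coverage. The fold of the Cs promoter peak was 0.269 higher in the male KO than in the male WT library, and its female mean was lower in KO by a difference of -0.51. For Ogdh the male difference was 0.273 and the female difference -0.22. KDM2A coverage of the Idh2 promoter was 10.0 points higher in the male KO than in the male WT library (17.0% against 6.93%), and the female mean difference was -7.01 points. Over the body of Idh2 the KDM2A differences were 5.78 points in the male pair and -2.93 in the females. H3K36me2 coverage of the Cs body differed by 4.21 points in the male pair and by -6.81 in the females.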

How the results depend on the processing

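None of the 9 genes passed the adjusted test in any main comparison, and across 492 repeats under other settings 437 kept direction and side of the threshold, 54 reversed and 1 passed (Idh2, H3K36me2 gene-body coverage, female libraries only, adjusted p = 0.0347). The cause of the reversals was not tested. The labels do not say whether same-numbered libraries are paired. With the replicate block, each difference was unchanged by construction, and the calls stayed at 0 except for 1 gene in H3K36me2 gene-body fold, which is not a TCA cycle gene. Same-numbered correlations lay between -0.08 and 0.08, and those of different numbers between -0.13 and 0.11. With so few libraries per genotype these cannot settle whether libraries were paired.

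With female libraries only, 2997 genes were called for H3K36me2 gene-body coverage, and the median over the TCA cycle genes was -0.90 points for KDM2A promoter and -0.23 for KDM2A gene-body coverage. Reversed values there were KDM2A promoter fold of Idh2 (-0.042) and Ogdh (-0.013), KDM2A promoter coverage of Fh1 (0.65), Mdh2 (4.15) and Cs (3.25), KDM2A gene-body coverage of Ogdh (0.13) and Dlst (0.18), and H3K36me2 promoter coverage of Suclg1 (0.98) and Cs (6.93). Without centring, the fold difference was -0.030 for KDM2A at Ogdh and 0.0033 for H3K36me2 at Idh2. With equal numbers of peaks per list, KDM2A promoter coverage of Idh2 was 1.71, and gene-body coverage was 2.27 for Idh2, 0.28 for Cs and -0.28 in the median. At the 5′ end alone, the KDM2A promoter median was -9.15 and Sucla2 -0.24, and for H3K36me2 promoters 8 genes were called and the median was -18.8.

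After division by the genome share of each list, the KDM2A promoter median was 3.70, with Fh1 at 3.70, Idh2 6.68, Cs 18.7, Ogdh 7.95 and Dlst 0.35. In KDM2A gene bodies the median was 0.053, with Idh2 at 5.04, Ogdh 0.053 and Dlst 0.98. H3K36me2 promoter values were 2.17 for Suclg1 and 2.30 for Cs, and the gene-body value of Suclg1 was 0.19. With stricter peaks, KDM2A promoter coverage of Mdh2 was 11.4, KDM2A gene-body coverage -1.06 for Fh1, 0.44 for Mdh2 and -0.64 in the median, H3K36me2 promoter coverage of Idh2 0.52 with 5 genes called, and the H3K36me2 gene-body median -7.07. Outside the TSS windows KDM2A coverage of the Mdh2 body was 1.26, and with a 1 kb window H3K36me2 promoter coverage of Suclg1 was 0.023. The stricter H3K36me2 gene-body fold was not run for the TCA cycle genes, as none had such a peak in all 6 lists.

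Leaving out each library in turn gave 0 calls in all 6 comparisons. The ranges were -6.80 to -3.14 for the KDM2A promoter median, -1.54 to -0.62 for the gene-body median, -12.6 to -4.16 for the H3K36me2 promoter median and -4.44 to -1.95 for its gene-body median. Moves of over 1.5 times came without WT replicate 3 (-6.80) or KO replicate 3 (-5.93) for KDM2A promoters, WT replicate 1 (-0.62) or 2 (-0.85) for KDM2A gene bodies, WT replicate 2 (-12.1), WT replicate 3 (-12.6) or KO replicate 3 (-4.16) for H3K36me2 promoters, and KO replicate 3 (-1.95) for H3K36me2 gene bodies. The fold medians ran from -0.058 to 0.021 for KDM2A and from -0.058 to -0.026 for H3K36me2. Ranges spanned 0 for KDM2A promoter fold of Ogdh (-0.041 to 0.11), Idh2 (-0.010 to 0.19) and Dlst (-0.11 to 0.043), KDM2A promoter coverage of Cs (-7.66 to 3.83), Fh1 (-2.52 to 0.81) and Idh2 (-4.69 to 2.21), KDM2A gene-body coverage of Fh1 (-0.59 to 0.59), Dlst (-1.46 to 0.027) and Idh2 (-2.21 to 1.75), H3K36me2 promoter coverage of Suclg1 (-4.93 to 4.30) and Cs (-15.5 to 5.29), and H3K36me2 gene-body fold of Idh2 (-0.039 to 0.011). Without spanning 0, the range was -7.69 to -3.75 for KDM2A promoter coverage of Idh3a, -0.11 to -0.0071 for KDM2A promoter fold of Cs and -0.092 to -0.030 for H3K36me2 gene-body fold of Suclg1.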

Other observations

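The genes whose KDM2A promoter and H3K36me2 gene-body coverage in the 12 libraries lay nearest to the mean of the 9 TCA cycle genes were the nonagouti gene a, Eaf2 and Lrrc8c, with Euclidean distances of 6.56, 7.10 and 8.16 points. Distances of the 9 genes themselves ran from 23.6 for Dlst to 75.3 for Idh2, and 20279 of 21888 other genes lay within that highest value.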
